A study of Mus musculus with 6 samples.

Results

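The genes described here are 47 genes of the mitotic cell cycle, chosen by name among the 54232 genes of a table of nuclear RNA from cardiomyocyte nuclei. They run from the D-type cyclins that open the cycle through DNA replication to mitosis and cytokinesis. Of the 47, 39 had a mean normalised read count of at least 10 over the 6 libraries and were tested. The other 8 lay below that level and are called near zero. A normalised read count is the number of reads of a gene divided by a size factor of its library.

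Left ventricles of adult male mice gave 3 wild-type (WT) libraries and 3 UtyGT libraries. In UtyGT a gene trap sits in intron 4 of Uty on the Y chromosome. The UtyGT allele stemmed from 129P2/OlaHsd ES cells and was bred onto C57BL/6J. WT controls carried an untrapped 129P2/OlaHsd Y chromosome on the same background. The trap is in every cell of the mouse, so that it is not specific to cardiomyocytes. Nuclei were freed from frozen tissue and sorted with an antibody against PCM1, which gathers around cardiomyocyte nuclei, with 150000 nuclei per library. Each library carried 1 of the numbers 11, 15 and 31, and each number occurred once per group. The labels state neither how many animals gave a library nor what a number stands for. The 3 libraries of a group were obtained on 3 separate days according to the description of the series. A second deposited table, of numbers 11 and 31 alone, is named for an effect of the day, but which number belongs to which day is not given. Hence p-values of UtyGT against WT reflect how far libraries of a group differ, part of which may be technical. Those of the test of the numbers rest instead on how unevenly WT and UtyGT differ from number to number.

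The cell cycle is driven by cyclin-dependent kinases, each switched on by a cyclin. Cyclin D with CDK4 or CDK6, and then cyclin E with CDK2, phosphorylate the retinoblastoma protein and release E2F transcription factors, which raise the genes of DNA replication. Later, cyclin A and cyclin B with CDK1 drive entry into mitosis, and the genes of that phase are held silent in resting cells by the DREAM complex. Most cardiomyocytes of the adult mouse have left the cycle, whereas macrophages, fibroblasts and endothelial cells of the heart can still divide.

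The libraries held between 18204752 and 23252887 gene reads. Uty itself had between 1212 and 1332 normalised counts in WT and between 14.1 and 22.1 in UtyGT. All 12 cardiomyocyte markers were measured, with sums between 2118588 and 2534076. Leukocyte markers were present as well. Of 19, 16 passed the minimum, all of them genes that macrophages express, whereas Cd3e, Cd79a and S100a8, which mark T cells, B cells and neutrophils, had at most 3 reads in any library. The sum of the 19 was 29908, 2423 and 22440 in WT and 11841, 1074 and 23169 in UtyGT, in the order 11, 15 and 31, which is also the order of the values below. Both number 15 libraries thus stood apart, with a 12.5-fold lower mean. All 16 markers tested passed the test of the numbers and were lower in number 15, with a median log2 difference of -3.61. Other lists moved less, as the mean of numbers 11 and 31 over number 15 was 1.81 for fibroblast markers, 1.24 for endothelium, 0.90 for mural cells, 0.99 for erythroid cells and 1.01 for cardiomyocytes. Bulk RNA cannot tell fewer cells of a type from less RNA per cell.

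Promoter sequences are shown for 6 genes that the results turn on. Mki67, Top2a and Cdc25b varied with the leukocyte markers over the libraries, whereas Cenpf, Cdk2 and Cdkn1b did not. Each line gives the 200 bases before the RefSeq start, 5′ to 3′ on the strand of the gene, from build GRCm38.p6, in windows with 0 bases of annotated exon of the gene. Capitals mark elements known from cell cycle promoters, on either strand, namely TTTGAA (the CHR element bound by DREAM), CCAAT (the CCAAT box bound by NF-Y) and TTCCCGC or TTGGCGC (E2F sites). The windows lie at chr7:135716380-135716579 on the minus strand for Mki67, chr11:99024190-99024389 on the minus strand for Top2a, chr2:131186748-131186947 on the plus strand for Cdc25b, chr1:189688087-189688286 on the minus strand for Cenpf, chr10:128705052-128705251 on the minus strand for Cdk2 and chr6:134920201-134920400 on the plus strand for Cdkn1b.
Mki67: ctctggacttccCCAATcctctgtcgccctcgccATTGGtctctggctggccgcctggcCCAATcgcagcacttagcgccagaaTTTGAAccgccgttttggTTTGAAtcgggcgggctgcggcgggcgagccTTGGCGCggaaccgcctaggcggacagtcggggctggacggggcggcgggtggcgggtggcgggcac
Top2a: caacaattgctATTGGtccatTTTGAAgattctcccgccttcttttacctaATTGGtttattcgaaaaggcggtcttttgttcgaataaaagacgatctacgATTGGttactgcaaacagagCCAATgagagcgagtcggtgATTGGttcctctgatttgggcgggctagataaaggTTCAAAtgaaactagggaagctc
Cdc25b: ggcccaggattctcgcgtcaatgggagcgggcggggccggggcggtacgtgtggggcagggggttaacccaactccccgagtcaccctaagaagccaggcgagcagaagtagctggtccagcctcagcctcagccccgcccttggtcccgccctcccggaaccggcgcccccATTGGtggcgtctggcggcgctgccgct
Cenpf: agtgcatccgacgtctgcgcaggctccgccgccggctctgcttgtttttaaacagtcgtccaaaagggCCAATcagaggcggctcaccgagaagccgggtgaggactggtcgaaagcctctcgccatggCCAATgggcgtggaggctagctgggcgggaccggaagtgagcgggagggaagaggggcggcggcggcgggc
Cdk2: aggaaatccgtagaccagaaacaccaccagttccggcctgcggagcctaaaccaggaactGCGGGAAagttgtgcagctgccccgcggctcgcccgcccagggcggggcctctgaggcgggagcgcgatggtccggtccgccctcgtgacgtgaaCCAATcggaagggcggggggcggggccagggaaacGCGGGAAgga
Cdkn1b: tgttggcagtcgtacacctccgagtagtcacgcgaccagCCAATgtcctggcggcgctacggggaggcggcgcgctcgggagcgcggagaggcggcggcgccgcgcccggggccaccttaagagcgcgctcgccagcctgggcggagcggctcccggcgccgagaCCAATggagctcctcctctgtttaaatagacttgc

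The Mki67 window held 2 CHR elements, 3 CCAAT boxes and 1 E2F site. Top2a had 2 CHR elements and 5 CCAAT boxes. Cdc25b and Cenpf showed only CCAAT boxes, with 1 and 2. In the window of 300 bases described below, Cenpf also had 1 CHR element, outside the bases shown. Cdk2 held 1 CCAAT box and 2 E2F sites, and Cdkn1b 2 CCAAT boxes. Over 300 bases, from 250 before to 50 after the start, promoters were found for 36 of the 47 genes. The CHR element was present in 14 of the 36 (38.9%) against 20.2% of the 27025 gene symbols in the table with a promoter, the CCAAT box in 27 (75.0%) against 41.1%, and an E2F site in 13 (36.1%) against 7.79%. Those 27025 were not limited to genes tested. Among genes ordered like the leukocyte markers, as defined below, 4 of 14 had a CHR element, 10 a CCAAT box and 5 an E2F site. Among the other genes tested 6, 11 and 4 of 15 did. The difference between these shares was not tested, and 6 of the 20 genes ordered like the markers had no promoter in the table. A match describes these letters only and is no sign of binding.

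**Figure D1:**
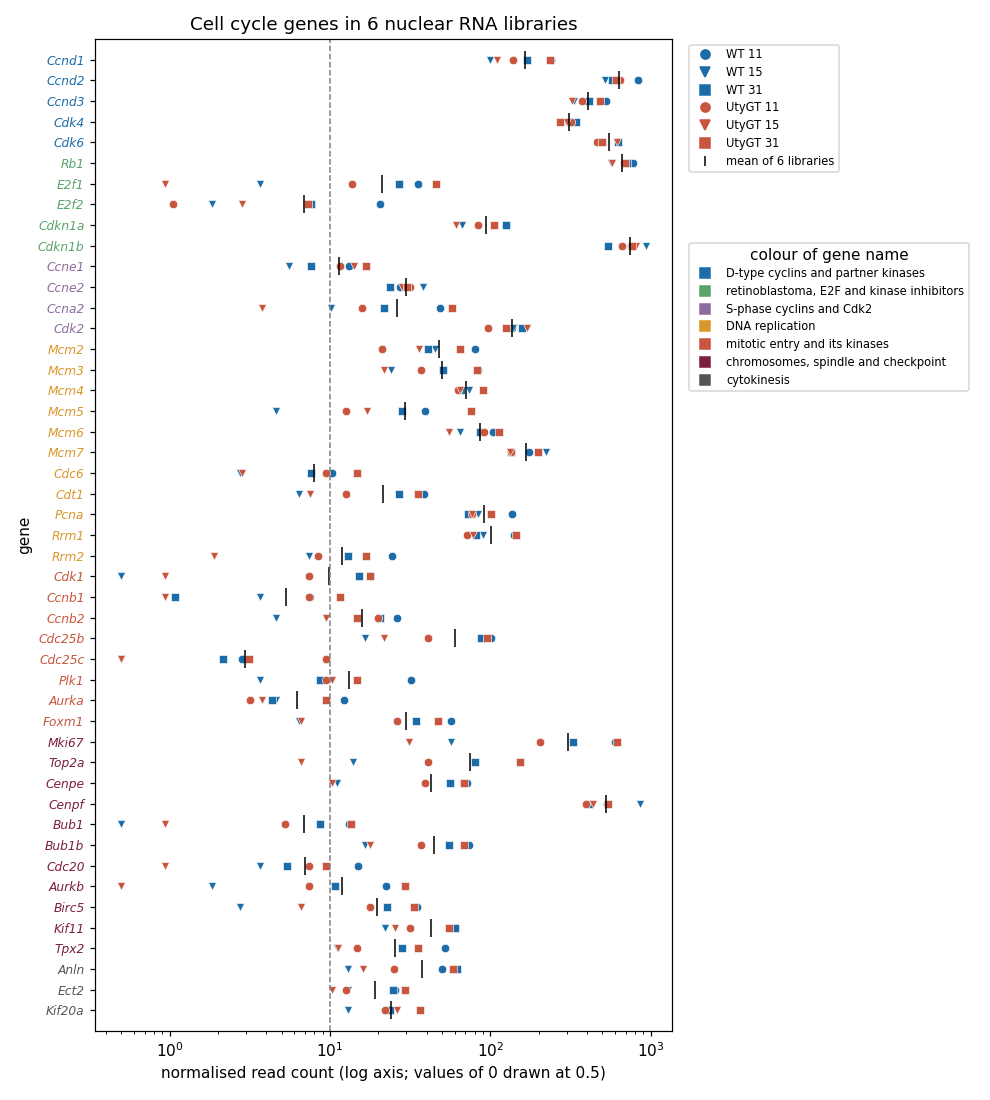
Normalised read count (log axis) of the 47 cell cycle genes in each of the 6 libraries, ordered by role. Blue symbols are WT, red are UtyGT, triangles are number 15, black ticks are means, values of 0 are drawn at 0.5 and the dashed line marks the minimum of 10. Means ran from 2.93 for Cdc25c to 746 for Cdkn1b, and the triangles of most mitotic genes lie to the left of the other symbols.

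Levels between genes are compared per kilobase of annotated exon. By that measure Cdkn1b stood highest. The gene, which encodes the kinase inhibitor p27, had a mean of 164 normalised counts per kilobase, Rb1 111, Cdk4 94.6, Ccnd2 67.3, Ccnd3 46.6 and Cdk6 39.5. Replication and mitotic genes lay below these, with 37.9 for the sliding clamp gene Pcna, 37.6 for the helicase gene Mcm7, 34.3 for Cenpf, 30.4 for Mki67, 10.5 for Bub1b and 8.28 for Top2a. The D-type cyclin gene Ccnd1, with 35.2, and the inhibitor gene Cdkn1a, with 26.6, lay below Pcna and Mcm7 too. Cyclin E genes and E2f1, which act early, were low, with 8.53 for Ccne2, 6.71 for E2f1 and 4.30 for Ccne1, and the cytokinesis genes had between 3.57 and 5.57. RNA of nuclei includes unspliced transcripts, which such a scale does not separate. Rb1, Cdk4, Ccnd1, Ccnd2, Ccnd3, Cdk6, Mcm7, Cdkn1a and Ccne2 share exon bases with genes on the opposite strand, so that reads may be shared. For Cdk4 these are 641 bases with Tspan31, and for Ccnd1 1100 with LTO1.

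The 8 genes near zero were E2f2, Cdc6, Cdk1, Ccnb1, Cdc25c, Aurka, Bub1 and Cdc20. They include the engine of mitotic entry, CDK1 with cyclin B1 and the phosphatase CDC25C, next to the mitotic kinase Aurora A, the checkpoint kinase BUB1, the anaphase activator CDC20, the replication licensing factor CDC6 and the transcription factor E2F2. Over all 6 libraries together they had between 17 reads (Cdc25c) and 58 reads (Cdk1). Cdk1 had 19, 0 and 14 reads in WT and 7, 1 and 17 in UtyGT. In normalised counts these were 17.8, 0 and 15.1, and 7.36, 0.94 and 17.8. Both number 15 libraries were thus at or near 0, and a count of 0 allows up to 3 reads. Bub1 had 0 and 1 reads in the number 15 libraries and between 5 and 14 in the other 4. Cdc25c had 0 reads in both number 15 libraries and at most 9 elsewhere. Near the minimum from below lay Cdk1 with a mean of 9.84 and Cdc6 with 7.93. Cdc6 had 10.3, 2.76 and 7.56 normalised counts in WT and 9.47, 2.82 and 14.6 in UtyGT. Just above it lay Ccne1, which encodes cyclin E1, with a mean of 11.4, and Rrm2, a subunit of ribonucleotide reductase, with 11.96. Over numbers 11 and 31 alone, Cdk1 had a mean of 14.5, Cdc6 10.5 and Bub1 10.2, all above the minimum. The other genes near zero had means between 4.39 (Cdc25c) and 9.29 (Cdc20) there. Cdk1, Cdc6 and Bub1 are thus near zero only by the mean over all 6 libraries, which includes number 15. The count of genes near zero was 11 without WT 11, 1 with a minimum of 5 and 15 with a minimum of 20.

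Of the genes tested, 10 also had a mean under 10 in the number 15 libraries alone and passed the minimum through numbers 11 and 31. E2f1, Foxm1 and Aurkb were among these 10, so that their lower values in number 15 partly follow from the minimum. The counts below describe the genes tested and are no independent support.

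The differences between the numbers 11, 15 and 31 were tested because each number marks 1 WT and 1 UtyGT library. The 2 number 15 libraries had less RNA of 6 genes of proliferating cells, Mki67, Top2a, Cenpe, Foxm1, Cdc25b and E2f1, by log2 differences between -1.96 and -3.27. Of these, Foxm1 and E2f1 passed the minimum only through numbers 11 and 31. By limma's F test with Benjamini-Hochberg adjustment over 16202 genes, 6 of the 39 genes passed the threshold of 0.05, all lower in number 15, against 4.79% of all genes tested and 4.76% that passed and were lower in number 15. In total, 33 of the 39 had a log2 difference below 0, against 7577 of all 16202 genes. The median was -0.87 against 0.02 over all genes tested. An unadjusted p under 0.05 by the same F test was found for 18 of the 39, against 9.57% of all genes tested. By role, 3 of 9 chromosome, spindle and checkpoint genes passed, 2 of 4 genes of mitotic entry and 1 of 4 of the retinoblastoma, E2F and inhibitor group. None of 5 D-type cyclin and kinase genes, 4 S-phase cyclin and Cdk2 genes, 10 replication genes or 3 cytokinesis genes did, although 1, 1, 3 and 1 of them had an unadjusted p under 0.05. The medians by role were -2.32 for chromosomes and spindle, -1.71 for mitotic entry, -0.87 for cytokinesis, -0.54 for the retinoblastoma group, -0.51 for replication, -0.22 for D-type cyclins and -0.08 for S-phase cyclins. These medians, and that of the 39, cover only genes tested and partly follow from the minimum as well. For mitotic entry 4 of 8 genes were near zero and left out, so that the roles are not ranked here.

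Mki67 encodes Ki-67, a protein of the mitotic chromosome surface that marks cycling cells (minus strand of chromosome 7, 135689784 to 135716361, GRCm38). It had 597, 57.1 and 326 normalised counts in WT and 203, 31 and 620.0 in UtyGT. Both number 15 libraries were the lowest, and the 2 groups overlapped throughout. The log2 difference of number 15 from the mean of 11 and 31 was -3.20 (SE 0.41, adjusted p by limma 0.00569), or 9.91-fold between the plain means. For every gene in the test of the numbers, p is that of the F test over 11, 15 and 31. It is not a p-value of the log2 difference printed beside it.

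Top2a, the topoisomerase that untangles sister chromatids (chromosome 11, 98992943 to 99024189, minus strand), had 154, 13.8 and 80.0 in WT and 41.0, 6.58 and 153 in UtyGT. Its order over the libraries was exactly that of the leukocyte sum. The log2 difference was -3.16 (SE 0.51, adjusted p by limma 0.0181).

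Cenpe, the kinesin that links kinetochores to microtubules (chromosome 3, 135212537 to 135273611, plus strand), had 71.3, 11.1 and 56.2 in WT and 38.9, 10.3 and 69.0 in UtyGT. Both number 15 values were again the lowest, with a log2 difference of -2.32 (SE 0.36, adjusted p by limma 0.0143).

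Foxm1, the transcription factor of the late cycle genes (chromosome 6, 128362967 to 128376146, plus strand), had 57.2, 6.45 and 34.6 in WT and 26.3, 6.58 and 47.0 in UtyGT, a log2 difference of -2.43 (SE 0.43, adjusted p by limma 0.0304). Cdc25b, a phosphatase that starts up CDK1 (chromosome 2, 131186949 to 131198497, plus strand), had 100.3, 16.6 and 87.5 in WT and 41.0, 21.6 and 95.1 in UtyGT, with -1.96 (SE 0.38, adjusted p by limma 0.0433). In both genes the 2 number 15 values were close to each other and below the other 4. Cdc25b shares 92 bases of exon with Spef1 on the opposite strand.

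E2f1, which encodes an activator of the replication genes (chromosome 2, 154559407 to 154569892, minus strand), had 35.6, 3.69 and 27.0 in WT and 13.7, 0.94 and 46.0 in UtyGT. The 0.94 was 1 read. The log2 difference was -3.27 (SE 0.56, adjusted p by limma 0.0237). Aurkb, the kinase of the chromosomal passenger complex, was as low on the same scale (-3.27, SE 0.72) but missed the threshold, with an adjusted p by limma of 0.0945. It had 22.5, 1.84 and 10.8 in WT and 7.36, 0 and 29.3 in UtyGT, where the 0 allows up to 3 reads.

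The count of 6 rested on few libraries. It was 1 without WT 15 and 0 without UtyGT 15, where 13 genes had an unadjusted p under 0.05, and it was 10 without WT 11 and 17 without UtyGT 11. By edgeR on the recovered reads 2 genes passed and by DESeq2 6 did. Mki67 passed in 14 of 15 alternatives, with adjusted p between 6.61e-06 and 0.0585, and the exception was the fit without UtyGT 15. The other 5 genes passed in fewer alternatives, namely Cenpe in 11 of 14 (adjusted p by limma, edgeR or DESeq2 up to 0.291), Top2a in 10 of 15 (up to 0.183), E2f1 in 9 of 14 (up to 0.292), Foxm1 in 9 of 14 (up to 0.528) and Cdc25b in 7 of 15 (up to 0.815). Without 1 of its libraries, number 15 has a lone library that is assumed to vary like the others. Without UtyGT 15 the log2 differences were -2.93 for Mki67, -2.92 for Top2a, -2.61 for Foxm1, -2.43 for Cdc25b, -2.41 for Cenpe and -2.77 for E2f1.

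**Figure D2:**
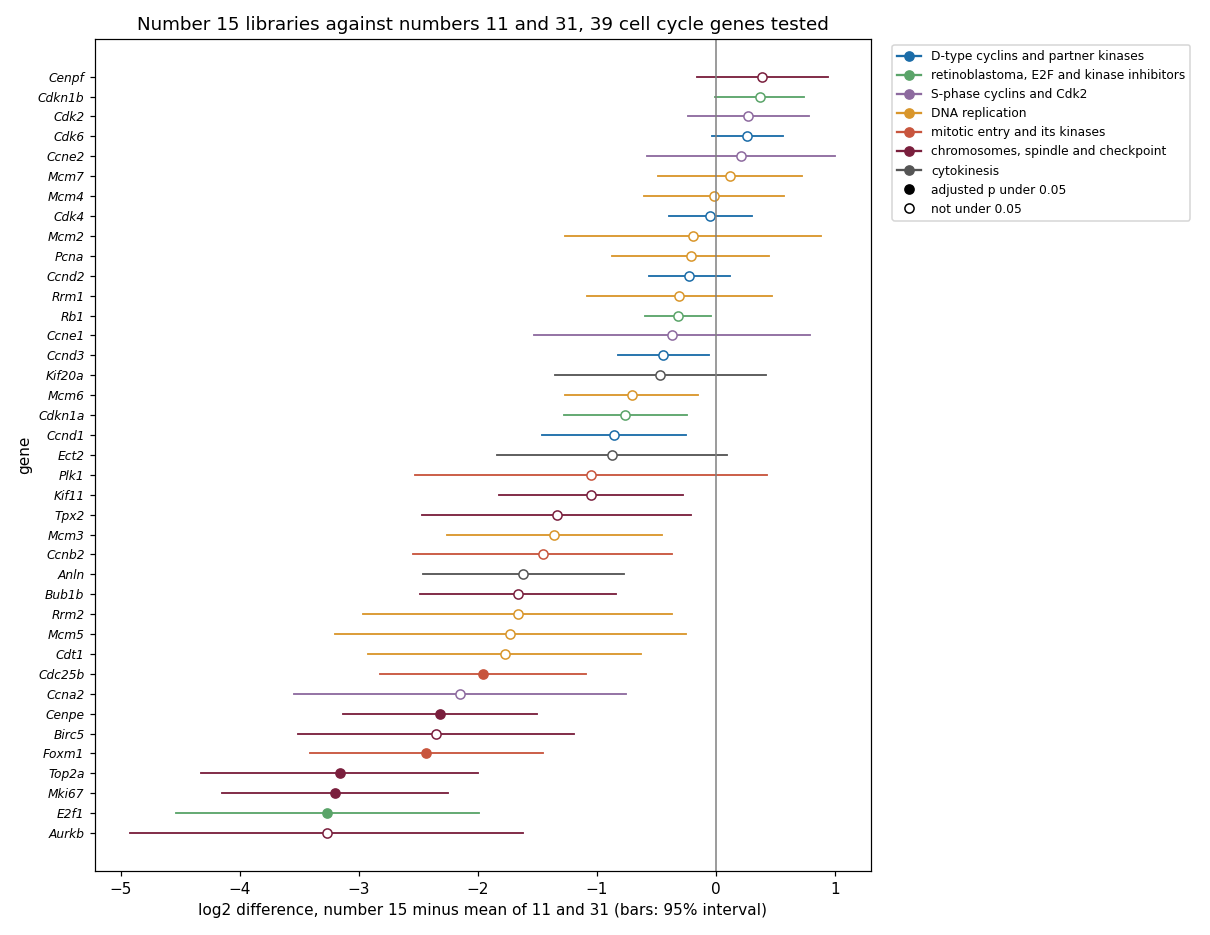
Log2 difference of the number 15 libraries from the mean of numbers 11 and 31, with its 95% interval, for the 39 genes tested, coloured by role. Filled circles are the 6 genes with an adjusted p under 0.05, all at -1.96 or lower, and 6 genes lie above 0, the highest of them Cenpf at 0.39.

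At the other end, 3 genes with the highest differences were Cenpf, Cdkn1b and Cdk2, none past the threshold. Cenpf is named for its place at the mitotic kinetochore, and the protein also binds microtubules outside mitosis. It had 536, 859.8 and 411 normalised counts in WT and 398, 434 and 539 in UtyGT. Only WT 15 stood out, above all others, while UtyGT 15 lay within the range of the other 4. The log2 difference was 0.39 (SE 0.24, 95% interval -0.16 to 0.94), and it was -0.09 without WT 15. Cdkn1b had 750.2, 933 and 546 in WT and 662, 815 and 769 in UtyGT. Both number 15 values were the highest of the 6, with a difference of 0.37 (SE 0.16, 95% interval -0.01 to 0.74, adjusted p by limma 0.825). Cdk2 had 137, 139 and 157 in WT and 96.8, 169 and 125 in UtyGT, a difference of 0.27 (SE 0.22, 95% interval -0.24 to 0.78), and -0.07 without UtyGT 15.

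The other genes of highest mean were Rb1, Ccnd2 and Cdk6. Rb1, the founding pocket protein, had 772, 564 and 713 in WT and 678, 578 and 694 in UtyGT. Both number 15 libraries were the lowest, by -0.32 (SE 0.12) on the log2 scale and short of the threshold. Ccnd2 (cyclin D2) had 838, 522 and 575 in WT and 648, 612 and 607 in UtyGT, with no order by number that both groups shared. Cdk6 had 495, 618 and 623 in WT and 459.8, 619 and 498 in UtyGT, again without such an order.

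Genes were compared with the leukocyte markers by their order over all 6 libraries. Each of the 15 pairs of libraries was asked whether a gene ordered it as the leukocyte sum did. A gene counted as ordered alike from 13 pairs. This is a description of 6 libraries that share their reads with the markers, and no test was made. Of the 39 genes, 20 (51.3%) were ordered alike, against 12.4% of all genes tested. The 5 with all 15 pairs were Ccnd3, Mcm3, Rrm2, Top2a and Cenpe. With 14 pairs there were 11, namely Ccnd1, E2f1, Ccna2, Cdt1, Cdc25b, Foxm1, Mki67, Bub1b, Aurkb, Birc5 and Tpx2. Rb1, Cdkn1a, Mcm6 and Ect2 had 13. The order takes no account of size, as Rb1 spanned 1.37-fold and Ccnd3 1.64-fold, against 27.9-fold for the leukocyte sum. Among chromosome, spindle and checkpoint genes, 7 of 9 were ordered alike, the exceptions being Cenpf with 8 pairs and the spindle motor gene Kif11 with 12. Not ordered alike were Cdk6, Cdkn1b, Ccne2 and Cdk2 (5 pairs each), Cdk4 and Mcm4 (8 each), Ccne1, Mcm7 and Kif20a (9 each), Ccnd2 and Pcna (10 each), Rrm1, Plk1 and Anln (11 each) and Mcm2, Mcm5 and Ccnb2 (12 each). The genes near zero were not among the 39. On their few reads, Cdk1 and Cdc20 had 14 pairs, Bub1 13, Cdc6, Ccnb1 and Aurka 12, E2f2 11 and Cdc25c 10.

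Part of this order is the gap between number 15 and the rest. Within the 4 libraries of numbers 11 and 31, whose leukocyte sums ran from 11841 to 29908, 24 of the 39 genes ordered at least 5 of 6 pairs like the leukocyte sum, against 24.9% of all genes tested. Of these, 13 ordered all 6 pairs, among them Top2a, Cenpe, Foxm1 and Cdc25b. Other cell types gave fewer matches over the 6 libraries. Against the fibroblast markers, 8 of 39 genes were ordered alike, with 6.35% of all genes. Against the endothelial markers there were 2, with 2.81% of all genes, and against the cardiomyocyte markers 1 (Cdk4), with 5.08% of all genes. Neither the part of leukocyte nuclei nor that of free leukocyte RNA in these levels was tested.

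Set against the leukocyte sum, some genes spread less than their levels and most spread more. Of the 38 genes tested that were above 0 in every library, 10 had a smaller range per leukocyte count. Mki67 spanned 20-fold over the libraries, but between 14.5 and 28.9 counts per 1000 counts of leukocyte markers, a 1.99-fold range. Top2a spanned 23.4-fold and 1.90-fold, and E2f1 49.0-fold and 2.27-fold. Foxm1 (8.87-fold and 3.97-fold) and Cenpe (6.90-fold and 4.04-fold) narrowed less, and Cdc25b (6.05-fold and 6.00-fold) hardly at all. Other mitotic genes widened, as Bub1b spanned 4.41-fold in level and 6.80-fold per leukocyte count, Ccnb2 5.70-fold and 13.8-fold, and the mitotic kinase gene Plk1 8.65-fold and 25.0-fold. Genes that varied little in level widened too, as Cdkn1b spanned 1.71-fold in level and 31.2-fold per leukocyte count, Cdk4 1.25-fold and 27.1-fold, and Cenpf 2.16-fold and 22.5-fold. Some genes ordered alike did the same. Rb1 spanned 1.37-fold and 20.9-fold, Ccnd3 1.64-fold and 17.0-fold, Cdkn1a 2.05-fold and 13.6-fold, and Ccnd1 2.41-fold and 13.7-fold. The leukocyte sum itself spanned 27.9-fold.

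**Figure D3:**
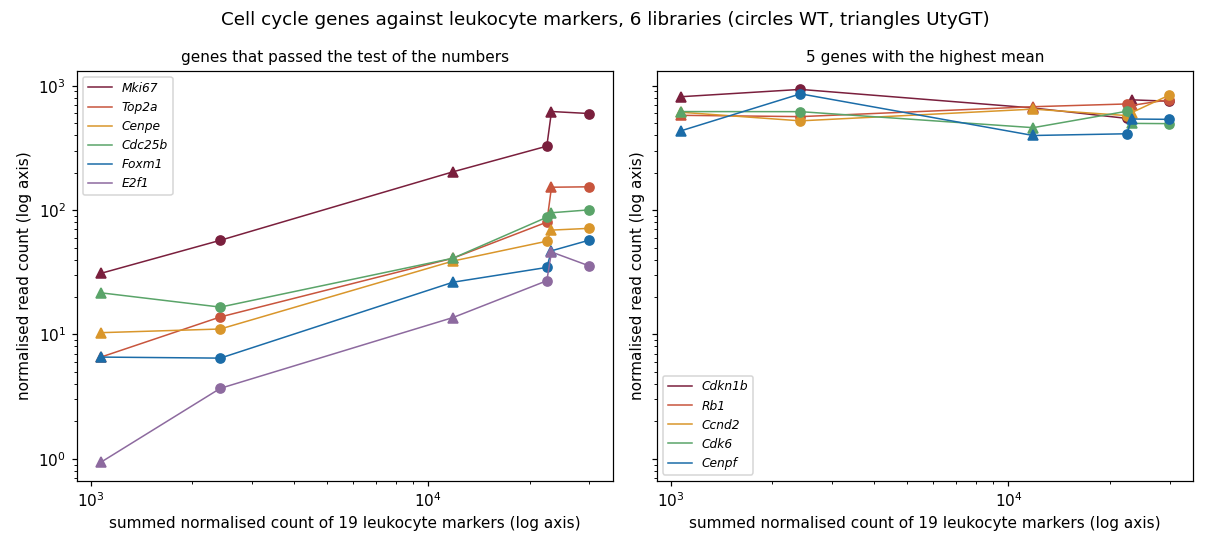
Normalised read count against the summed count of the 19 leukocyte markers in the 6 libraries, both on log axes, with circles for WT and triangles for UtyGT. On the left the 6 genes that passed the test of the numbers are lowest in the number 15 libraries, where the marker sum is lowest too. They were picked by that test, so that this part of their climb is no independent support, and not every step is upward. Mki67 lies between 31 and 620.0. On the right the 5 genes of highest mean lie between 398 and 933 at every marker sum.

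The comparison of UtyGT with WT asked whether the trap in Uty shifts genes of the cycle in the heart. No cell cycle gene passed. By limma, 0 of 39 had an adjusted p under 0.05, against 0.00617% of all genes tested, which is Uty alone. At an unadjusted p under 0.05 there were 0 as well, against 1.2% of all genes tested. By edgeR and DESeq2 on the recovered reads the counts were 0 and 0 as well, adjusted and unadjusted. The 2 groups overlapped for every one of the 39, whereas they did not overlap for 5.42% of all genes tested. The median log2 fold change was -0.18 (-0.01 over all genes tested), with 30 genes below 0 and 9 above, against 8333 of all 16202 genes below 0. Leukocyte markers had a median of -0.80 in the same comparison and fibroblast markers -0.34, and their part in the median of the cell cycle genes was not tested.

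The largest values came from genes of few reads or of wide spread. Ccne1 had 13.1, 5.53 and 7.56 normalised counts in WT and 11.6, 14.1 and 16.7 in UtyGT, which overlapped at WT 11, with a log2 fold change of 0.70 (SE 0.43, 95% interval -0.32 to 1.72). Mcm5, a subunit of the replicative helicase, had 39.4, 4.61 and 28.1 in WT and 12.6, 16.9 and 75.3 in UtyGT, with 0.50 (SE 0.93). Kif20a, a kinesin of cytokinesis, had 23.4, 12.9 and 23.8 in WT and 22.1, 26.3 and 36.6 in UtyGT, with 0.50 (SE 0.36, and 0.22 without WT 15), and it shares 1271 bases of exon with Cdc23 on the opposite strand. In none of the 3 genes did the groups separate.

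Rrm2 was the lowest at -0.88 (SE 0.77), with 24.4, 7.37 and 12.97 in WT and 8.42, 1.88 and 16.7 in UtyGT. It was -0.15 without UtyGT 15 and -1.46 without UtyGT 31. Top2a (-0.64, SE 1.24) and E2f1 (-0.62, SE 1.28) followed. In these 3 genes the spread between numbers was larger than the difference of the groups. Their intervals were accordingly wide, as for Mki67, where -0.50 had a 95% interval from -3.39 to 2.40. Genes that varied little in level over the libraries gave narrow ones. Cdk4 differed by -0.09 (95% interval -0.35 to 0.18), with 316 ± 21.5 normalised counts in WT against 298 ± 24.2 for UtyGT (SD, 3 libraries each). Cdk6 differed by -0.14 (-0.49 to 0.21), Rb1 by -0.06 (-0.40 to 0.27) and Cdkn1b by 0.04 (-0.43 to 0.51). For Mki67, Top2a, E2f1 and Aurkb a difference of several-fold in either direction was not detectable in these libraries.

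**Figure D4:**
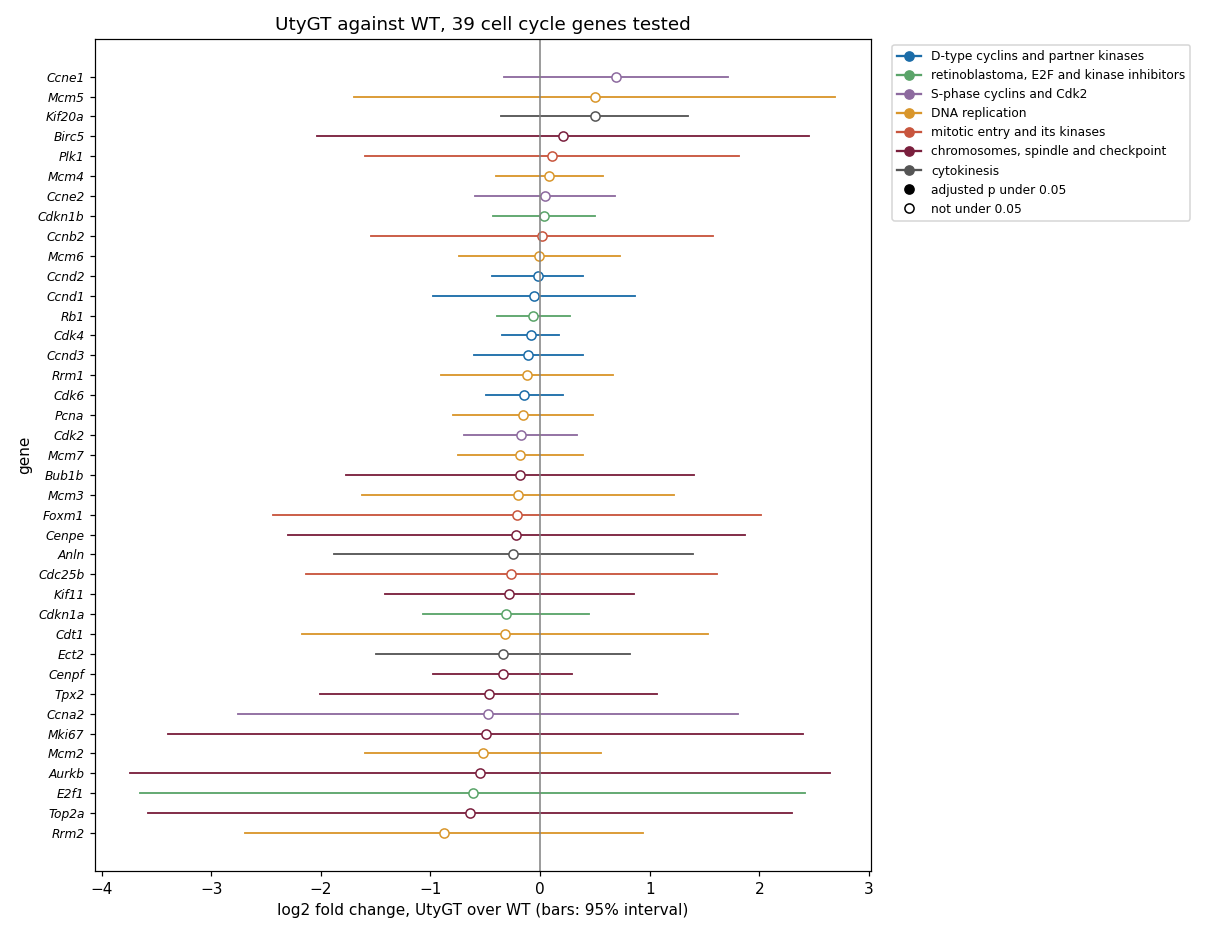
Log2 fold change of UtyGT over WT with its 95% interval for the 39 genes tested, coloured by role, on the scale of log2(normalised count + 1). All circles are open since no gene had an adjusted p under 0.05, every interval includes 0, and the narrowest interval near the middle is that of Cdk4 while those of Aurkb, E2f1, Top2a and Mki67 span over 5 log2 units.

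The wider machinery of the cycle, given by 159 further genes in 4 lists, was tested in the same fits. Of 53 other mitosis genes, 36 were tested and 7 passed the test of the numbers (4.79% of all genes did), all lower in number 15, with a median log2 difference of -1.11. Of the 36, 18 had a mean under 10 in number 15 and passed the minimum through numbers 11 and 31, Kif23 among them, so that count and median partly follow from the minimum. The 5 with the smallest p were Kif23, Espl1, Nek2, Knl1 and Ckap2l. Kif23, a kinesin of the central spindle, had 120.0, 1.84 and 72.4 in WT and 40.0, 0.94 and 127 in UtyGT. This is a log2 difference of -5.14 (SE 0.50, adjusted p by limma 0.00137), with 2 reads in WT 15 and 1 in UtyGT 15. Espl1, which encodes the protease separase, had 87.2, 11.1 and 69.2 in WT and 32.6, 5.64 and 96.2 in UtyGT (-2.91, SE 0.42). The kinase gene Nek2 (-3.64, SE 0.55), the kinetochore gene Knl1 (-3.40, SE 0.52) and the spindle gene Ckap2l (-3.75, SE 0.66) were lower in the same way. The count of 7 was 1 without either number 15 library, 11 without WT 31 and 15 without UtyGT 11, and edgeR and DESeq2 gave 4 and 9.

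Of 49 other replication and S-phase genes, 44 were tested and 1 passed, a share below the 4.79% of all genes, with a median of -0.12. It was Dnmt1, the maintenance DNA methyltransferase, with 427, 236 and 419 in WT and 303, 199 and 466 in UtyGT, a log2 difference of -0.88 (SE 0.17, adjusted p by limma 0.0391). By edgeR 0 passed, and 6 had an unadjusted p under 0.05. By limma the count was 0 without WT 15 or without UtyGT 15 (1 and 4 at an unadjusted p under 0.05), 2 without WT 31 and 4 without UtyGT 11. Among 35 other cyclin, E2F and DREAM genes, 34 were tested and 0 passed by limma, edgeR or DESeq2, with 2 at an unadjusted p under 0.05 by each tool and a median of -0.04. The count by limma was 2 without UtyGT 11 and 1 without WT 11 or without WT 31. Among 22 inhibitors and checkpoint genes, 19 were tested and 0 passed by any of these tools, with 1, 0 and 0 at an unadjusted p under 0.05 and a median of -0.05, and 1 passed by limma without UtyGT 11. Of the 133 tested, 37 were ordered like the leukocyte markers, 21 of them among the 36 mitosis genes, against 12.4% of all genes tested.

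Between UtyGT and WT, 0 of the 133 passed by limma, edgeR or DESeq2, with 2, 2 and 1 at an unadjusted p under 0.05 (by limma, 1.2% of all genes tested). One of them by each tool was in the list of inhibitors. By limma it was Wee1, the kinase that holds CDK1 inactive, which was looked up because it ranked high in earlier results of these data. Wee1 had 126, 151 and 132 in WT and 185, 200.1 and 225 in UtyGT. The groups did not overlap, which held for 6 of the 133 and for 5.42% of all genes tested. On the log2 scale UtyGT was 0.57 above WT (SE 0.14), but the adjusted p over all genes was 1.00 by limma, so that it did not pass.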

How the data were processed

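Nuclear RNA of 3 WT and 3 UtyGT libraries was analysed. The authors used STAR 2.5.1b on GRCm38 for alignment and featureCounts 1.6.0 for counts per gene (strand setting not stated, so that the 16 cell cycle genes that share exon bases with a gene on the opposite strand may share reads), and DESeq2 1.22.2 for scaling. The deposited values are a signal in normalised read counts, that is gene reads divided by 1 size factor per library, not by length. Deposited fold changes and p-values of the authors' own comparison were not used. In every library 100% of values were whole multiples of 1 read (tolerance 0.0001), so that reads were recovered. A second deposited table holds the 4 libraries of numbers 11 and 31 and differed in reads for 0 genes.

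The main test of UtyGT against WT was limma-trend (limma 3.58.1, R 4.3.3), two-sided, on log2(normalised count + 1) over 16202 genes with a mean of at least 10, with p-values adjusted by Benjamini-Hochberg (threshold 0.05). The scale understates changes of low genes. Numbers 11, 15 and 31 were tested by limma's F test with group as a covariate. The log2 difference of number 15 is a separate contrast of the same fit. SE and 95% intervals come from these fits. Alternatives used edgeR 4.0.16, DESeq2 1.42.0, other pseudocounts, minimums and scalings, a replicate block and each library left out, and scripts were tested on simulated data. A count of 0 allows up to 3 reads, which covers counting error only.

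The deviations of libraries from their group means were compared across genes. For libraries that share a number they correlated, with values of 0.25, 0.80 and 0.41 for numbers 11, 15 and 31, so that numbers were treated as pairs in the block. The correlation was 0.73 for WT 11 with UtyGT 31. The labels do not state a pairing.

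Every gene could be named. Values per library are given for genes that passed a test, the 3 highest and 3 lowest in each comparison, the 5 of highest mean and the 2 nearest the minimum on either side. Of the wider lists, at most 5 genes that passed, by smallest p, and Wee1 are named. The genes and lists were chosen with earlier results of these data known. Positions are from GENCODE M21, promoters from RefSeq (GRCm38.p6), where Rb1, Cdc25c, Foxm1, Aurkb, Ccne2, Tpx2, Ccnd2, Ccna2, Ccnd1, Mcm4 and Kif20a did not match.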

Additional observations from a re-analysis of the deposited data

Results flagged for a closer look

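In 2 of the 39 genes tested, number 15 lay above both other numbers in WT and below both in UtyGT. Mcm7, a subunit of the replicative helicase, had 222 normalised counts in WT 15 against 175 and 134 in WT 11 and WT 31, which is 67.4 above their mean. In UtyGT 15 it had 133 against 135 and 199.7, or -33.8 from their mean. Ccne2 (cyclin E2) had 37.8 in WT 15 against 27.2 and 23.8, which is 12.3 above their mean, and 28.2 in UtyGT 15 against 31.6 and 30.3, or -2.76 from it. With 1 library per number and group, the difference between the groups was not tested. Both genes share exon bases with genes on the opposite strand.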

How the results depend on the processing

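The count of cell cycle genes that passed between UtyGT and WT was 0 in all 18 alternatives, and 1 gene had an unadjusted p under 0.05 in the fit without WT 31. With the replicate number as a block it was 0 by limma, edgeR and DESeq2, so that the block changed no call. The count that passed the test of the numbers was 6, and it was 1 with no minimum, 2 with a minimum mean of 50 (18 genes tested), 2 with quantile scaling and 2 by edgeR. Leaving out each library in turn moved it from 0 to 17. A change of the minimum altered which genes were fitted and tested, and the causes of these shifts were not tested. Genes near zero numbered 1 with a minimum of 5 and 15 with a minimum of 20, and 7 to 11 with a library left out. The 20 genes ordered like the leukocyte markers numbered between 16 and 24 in the other settings and 19 to 21 with a library left out. Directions turned when a library was left out for Top2a (UtyGT over WT, log2 between -1.68 and 0.49), E2f1 (-1.66 to 0.64), Mcm5 (-0.37 to 1.05, and -0.083 in the table of 4 libraries), and, for number 15, Cdk2 (-0.073 to 0.61) and Cenpf (-0.094 to 0.87). Values under about 10 normalised counts rest on fewer than 20 reads and carry the largest counting error.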
